A study of Mus musculus with 21 samples.

Results

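The 40 genes described here encode the machinery of DNA replication and of mitosis, with the cyclins, kinases and inhibitors that decide whether a cell enters either phase. They were taken from the deposited count table by name. All 40 were present among its 47069 genes, and all 40 were among the 14473 genes that passed the filter on low counts. By role, 10 genes act in origin licensing and fork assembly (Mcm2, Mcm3, Mcm4, Mcm5, Mcm6, Mcm7, Cdc45, Cdc6, Cdt1 and Gins2), 4 in the replication clamp and nucleotide supply (Pcna, Rrm1, Rrm2 and Tyms), 9 at G1 and the start of S phase (Ccnd1, Ccnd2, Ccnd3, Cdk4, Ccne1, Ccne2, Cdk2, Ccna2 and E2f1), 2 as inhibitors of cyclin-dependent kinases (Cdkn1a and Cdkn1b), 4 at mitotic entry (Ccnb1, Ccnb2, Cdk1 and Foxm1) and 11 as mitotic kinases, checkpoint proteins, motors and proliferation markers (Mki67, Top2a, Cdc20, Bub1, Bub1b, Aurka, Aurkb, Plk1, Birc5, Kif11 and Kif20a).

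Macrophages that are grown from bone marrow divide in response to the growth factor M-CSF, which raises the D-type cyclins and so starts the release of E2F transcription factors from their inhibitors. E2F factors then drive the genes that load helicases on origins, copy DNA and make nucleotides, while the MuvB complexes with B-Myb and Foxm1 drive the later genes of G2 and mitosis. IL-4 and IL-33 are type 2 cytokines: IL-4 signals through Stat6, and IL-33 through its receptor chain ST2, the product of Il1rl1.

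The libraries were bulk RNA-seq of macrophages grown from mouse bone marrow (5 days, M-CSF-conditioned medium) and then exposed for 36 h to a cytokine or to none. There were 7 groups of 3 libraries, 21 in all. C57BL/6:Cx3cr1CRExGata3fl/fl cells, in which the Cx3cr1 promoter drives Cre on floxed Gata3, had IL-33 or no cytokine, and C57BL/6:ST2-/- cells had IL-33 or no cytokine. Wild-type C57BL/6 cells had IL-33, IL-4 or no cytokine. No group with Cre alone was analysed here, and IL-4 was given to wild-type cells only. Levels are given as CPM, counts scaled to a common library size with edgeR's TMM factors; changes are log2 changes from edgeR's quasi-likelihood test with their standard errors (SE), and a gene was called at a Benjamini-Hochberg adjusted p under 0.05 over all 14473 genes. The labels do not say that the libraries of a group came from separate animals, so the p-values rest on a spread between libraries that may be technical. In bulk RNA, fewer cells of a type and less RNA per cell cannot be told apart.

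The libraries held 32626469 to 48743646 counts, of which the 40 genes took 0.186 to 0.269%. Neither deletion could be checked from counts per gene, since the labels do not name the exons removed: Il1rl1 stood at 14.2 to 20.4 CPM in ST2-/- libraries, against 14.6 to 17.3 CPM in wild-type libraries with IL-33 or no cytokine, and Gata3 had 3 to 18 counts in each library with floxed Gata3, against 4 to 10 in each wild-type library. These groups are therefore called ST2KO-labelled and floxed-labelled. Each of the 6 floxed-labelled libraries expressed Xist (276.7 to 375.6 CPM) and the other 15 did not (up to 0.0462 CPM), so sex and the floxed genotype cannot be told apart. The macrophage genes Csf1r, Adgre1 and Cd68 were expressed in every library (Adgre1 at 829.8 to 2262 CPM). Markers of other cell types were present too. Hbb-bs of red cells, Tpsb2 of mast cells and Lum of stromal cells had 0 counts in every group, but the other markers of these 3 lists had counts in at least 1 group. In single libraries the erythroid and megakaryocyte list summed to 12.3 to 212 CPM, the mast cell and basophil list to 2.25 to 13.01 CPM and the stromal list to 0.765 to 5.21 CPM.

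The promoters of 5 members are printed as examples from 2 groups, replication and mitosis, which went apart in the comparisons below. RefSeq's promoter table on GRCm38.p6 held 31 of the 40 genes, 12 with replication roles and 12 with mitotic roles. The 250 bases before each start were searched on both strands for 3 classes of word. CHR-type words (TTTGAA or TTCGAA) are known as contact points of MuvB complexes, E2F-type words (TTTGGCGC, TTTCCGCC, TTTCCCGC or TTTGGCGG) as sites of E2F factors, and the CCAAT word (CCAAT) as the site of NF-Y. No word of one class holds a word of another. Each sequence reads 5′ to 3′ along the gene's strand, and capitals mark these words on either strand. Mcm5 (chr8:75109259-75109508, plus strand) and Mcm6 (chr1:128359706-128359955, minus strand) encode helicase subunits. Ccnb2 (chr9:70421555-70421804, minus strand) encodes cyclin B2, Mki67 (chr7:135716380-135716629, minus strand) the Ki-67 protein that coats mitotic chromosomes, and Top2a (chr11:99024190-99024439, minus strand) topoisomerase II alpha.
Mcm5: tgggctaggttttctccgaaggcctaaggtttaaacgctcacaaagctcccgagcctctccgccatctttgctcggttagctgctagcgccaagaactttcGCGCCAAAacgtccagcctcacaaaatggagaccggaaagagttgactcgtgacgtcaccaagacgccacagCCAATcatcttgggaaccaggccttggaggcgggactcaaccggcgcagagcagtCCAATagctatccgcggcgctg
Mcm6: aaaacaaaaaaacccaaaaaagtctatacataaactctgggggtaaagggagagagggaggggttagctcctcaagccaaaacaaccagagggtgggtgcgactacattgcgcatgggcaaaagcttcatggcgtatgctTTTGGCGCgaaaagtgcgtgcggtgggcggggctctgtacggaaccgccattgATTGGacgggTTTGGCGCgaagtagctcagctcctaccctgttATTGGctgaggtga
Ccnb2: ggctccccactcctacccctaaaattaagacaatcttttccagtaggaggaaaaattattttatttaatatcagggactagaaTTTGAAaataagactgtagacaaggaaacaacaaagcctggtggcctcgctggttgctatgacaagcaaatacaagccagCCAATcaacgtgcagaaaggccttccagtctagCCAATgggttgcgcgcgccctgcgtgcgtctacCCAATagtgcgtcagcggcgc
Mki67: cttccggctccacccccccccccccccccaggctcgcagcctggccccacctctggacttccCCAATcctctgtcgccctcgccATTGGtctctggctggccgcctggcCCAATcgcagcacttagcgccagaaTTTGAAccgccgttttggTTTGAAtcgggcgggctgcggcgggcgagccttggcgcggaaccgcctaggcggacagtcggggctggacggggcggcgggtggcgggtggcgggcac
Top2a: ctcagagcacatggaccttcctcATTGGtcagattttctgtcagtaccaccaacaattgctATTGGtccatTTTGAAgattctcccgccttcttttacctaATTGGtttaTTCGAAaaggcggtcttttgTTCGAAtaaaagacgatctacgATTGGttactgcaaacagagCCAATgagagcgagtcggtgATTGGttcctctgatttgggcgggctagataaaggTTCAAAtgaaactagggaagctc
In these windows Mcm5 held 1 E2F-type word and Mcm6 held 2, and neither held a CHR-type word. Ccnb2 held 1 CHR-type word, Mki67 held 2 and Top2a held 4, with no E2F-type word in any of the 3. Among the 12 replication genes, 4 held an E2F-type word (33.3%, against 2.96% of all 27025 promoters in the table) and 3 a CHR-type word (25%, against 19.6%). Among the 12 mitotic genes, 0 held an E2F-type word and 7 held a CHR-type word (58.3%). The printed promoters are thus examples with such words, which other members lacked. Pcna, Rrm2, Mcm2 and Cdc45 held no E2F-type word, and Plk1, Birc5, Aurka, Bub1 and Ccnb1 held no CHR-type word. The CCAAT word stood in 9 of the 12 replication promoters and 11 of the 12 mitotic promoters, against 37.5% of all promoters. A match describes these letters only and says nothing of binding.

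On the RPKM scale (CPM per kilobase of exon length), the 40 genes spanned a wide range of level in unstimulated wild-type macrophages. Exon length was that of the merged exons of all annotated transcripts of a gene. Pcna, the sliding clamp of DNA polymerases, was the most abundant at 94.2 ± 10.8 RPKM (mean ± SD, n = 3). Ccnb2 at 46.3 ± 5.55 RPKM, the p21 gene Cdkn1a at 45.4 ± 2.23 RPKM and the G1 kinase gene Cdk4 at 40.9 ± 0.673 RPKM followed, and the SD of Ccnb2 overlapped that of each of the other two. At the low end stood the S-phase cyclin gene Ccne2 at 0.894 ± 0.264 RPKM, the licensing factor gene Cdc6 at 0.778 ± 0.0855 RPKM and the cyclin D2 gene Ccnd2 at 0.446 ± 0.0664 RPKM. Across the 7 groups the highest group mean of a gene exceeded its lowest by 1.18-fold (Cdk2) to 4.49-fold (Ccnd1), with a median of 1.58-fold. The spread between libraries of a group was taken as a coefficient of variation, and its median over the 7 groups was found for each gene. These medians ran from 2.75% (E2f1) to 26.7% (Ccne1), and the middle value over the genes was 9.61%. Single groups could lie outside this range. Replication and mitotic genes reached their highest mean in different groups: 12 of the 14 replication genes were highest in wild-type cells with IL-4, whereas 13 of the 15 mitotic genes were highest in unstimulated floxed-labelled cells. Some counts are uncertain because exons overlap other genes and the strand setting is not given in the sources used here. The overlapped share of exon length was 67.3% for Gins2 (Gse1), 29.3% for Kif20a (Cdc23), 23.4% for Ccnd1 (LTO1), 19.7% for Cdk4 (Tspan31), 17.4% for Ccne2 (Ints8), 12.6% for Mcm7 (Ap4m1 and Cops6) and 12.5% for Ccna2 (Exosc9).

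**Figure D1:**
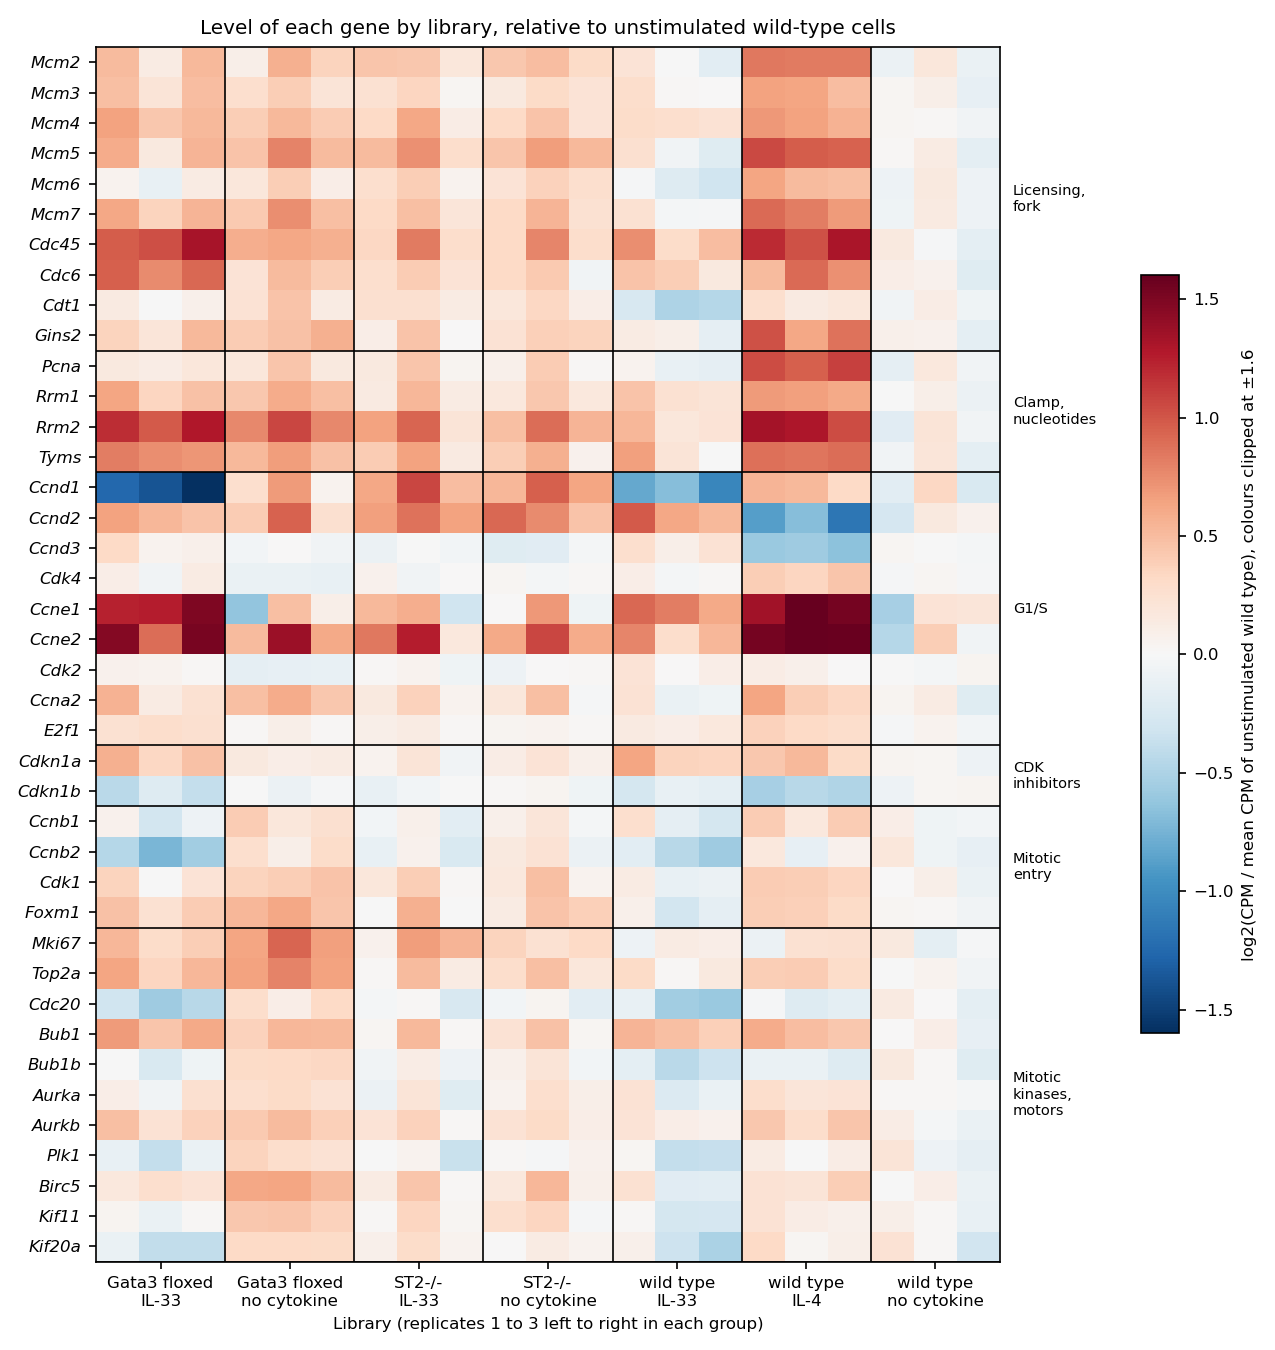
Heat map of the 40 genes (rows, by role) in each of the 21 libraries (columns, by group); colour is log2 of CPM over the mean of the 3 unstimulated wild-type libraries. Most replication rows have their highest values in the IL-4 libraries and most mitotic rows in the unstimulated floxed-labelled libraries.

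IL-4 raised most of the replication genes of wild-type macrophages, and the mitotic genes had smaller median changes. Of the 40 genes, 26 were higher and 3 lower with IL-4 than without cytokine, where 25.1% of all 14473 genes were higher and 22.5% lower. The median log2 change was 0.39 over the 40 genes and 0.00477 over all genes tested. Of the 10 licensing genes 9 rose, and all 4 genes of the clamp and nucleotide supply rose, with median log2 changes of 0.77 and 0.95. At G1 and S phase 6 of 9 rose and 2 fell; 3 of 4 rose at mitotic entry; and 3 of 11 mitotic kinases, checkpoint proteins and motors rose, with a median of 0.15. The summed level of the 14 replication genes was 1019 to 1073 CPM with IL-4, against 553 to 644 CPM without, and that of the 15 mitotic genes was 855 to 874 CPM with IL-4, against 702 to 807 CPM without. Neither pair of ranges overlapped.

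**Figure D2:**
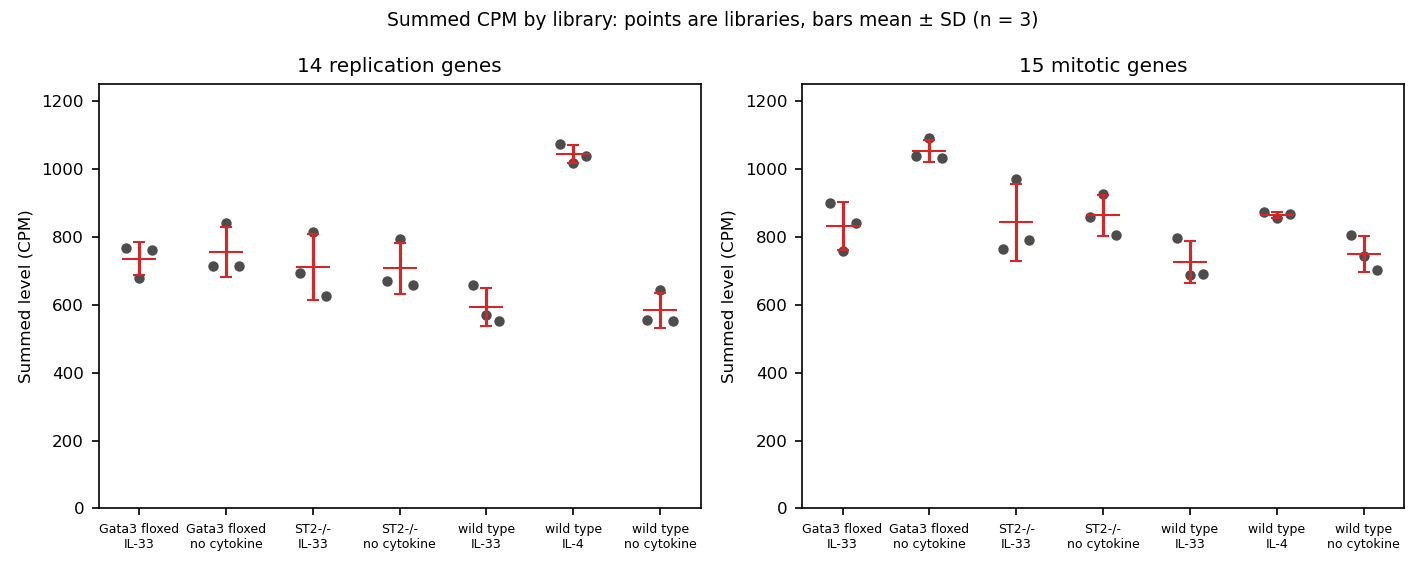
Summed CPM of the 14 replication genes and of the 15 mitotic genes in each library (points) with the mean and SD of each group (n = 3). The replication sum is highest in wild-type cells with IL-4, at 1019 to 1073 CPM, and the mitotic sum is highest in unstimulated floxed-labelled cells, at 1033 to 1093 CPM.

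Pcna (ENSMUSG00000027342, chr2:132249162-132253314, GRCm38) stood at 466, 439.7 and 483 CPM in the 3 IL-4 libraries, against 205, 255 and 218 CPM in the unstimulated libraries (log2 change 1.03 ± 0.11 SE, edgeR adjusted p = 2.94e-08). Every IL-4 library was above every unstimulated one. The table also lists the pseudogene copies Pcna-ps2 (59 to 213 counts in a library) and Ccnb2-ps (9 to 66 counts), and how reads shared with such a copy were assigned is not given in the sources used here. Rrm2 (ENSMUSG00000020649, chr12:24708241-24714146), the regulated subunit of ribonucleotide reductase, stood at 52.2, 51.0 and 42.8 CPM with IL-4, against 18.4, 24.0 and 19.99 CPM (log2 change 1.224 ± 0.15 SE, edgeR adjusted p = 6.08e-07). Tyms, the thymidylate synthase gene, stood at 11.9, 11.7 and 12.0 CPM with IL-4, against 6.20, 7.37 and 5.81 CPM (log2 change 0.88 ± 0.15 SE, edgeR adjusted p = 4.71e-05). The groups did not overlap for either gene, and Rrm1, the large subunit of the same reductase, rose as well (log2 change 0.65 ± 0.10 SE, edgeR adjusted p = 8.17e-06).

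Among the licensing genes, Cdc45, which joins the helicase to the fork, had 12.4, 10.98 and 13.4 CPM with IL-4, against 6.07, 5.34 and 4.86 CPM (log2 change 1.18 ± 0.16 SE, edgeR adjusted p = 1.94e-06). Mcm5 of the helicase ring had 59.8, 56.2 and 55.4 CPM with IL-4, against 29.1, 31.5 and 25.8 CPM (log2 change 0.99 ± 0.13 SE, edgeR adjusted p = 9.5e-07). Gins2, whose counts may hold reads of Gse1, had 18.3, 13.9 and 16.5 CPM with IL-4, against 9.57, 9.44 and 8.09 CPM (log2 change 0.84 ± 0.12 SE, edgeR adjusted p = 5.63e-06). For these 3 genes all IL-4 libraries lay above all unstimulated ones. The other helicase subunits rose by log2 changes of 0.54 (Mcm6) to 0.84 (Mcm2), and the loading factor gene Cdc6 by 0.73. Cdt1, the loading factor that geminin restrains, was the licensing gene that was not called (log2 change 0.20 ± 0.083 SE, edgeR adjusted p = 0.0545). It had 44.9, 41.0 and 42.2 CPM with IL-4, against 35.7, 40.3 and 35.6 CPM.

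The cyclins of G1 and S phase did not move together under IL-4. The E-type cyclin genes, which partner Cdk2, rose most. Ccne1 (ENSMUSG00000002068, chr7:38097984-38107534) had 9.55, 11.4 and 10.8 CPM with IL-4, against 2.60, 4.36 and 4.31 CPM (log2 change 1.495 ± 0.25 SE, edgeR adjusted p = 3.53e-05), and Ccne2 had 9.04, 10.1 and 9.34 CPM with IL-4, against 2.27, 4.10 and 3.01 CPM (log2 change 1.603 ± 0.26 SE, edgeR adjusted p = 2.45e-05). The D-type cyclin genes, which partner Cdk4, split. Ccnd2 had 2.28, 2.61 and 1.89 CPM with IL-4, against 3.50, 4.70 and 4.41 CPM (log2 change -0.90 ± 0.19 SE, edgeR adjusted p = 0.000508), and Ccnd3 had 34.3, 34.9 and 32.8 CPM with IL-4, against 52.99, 51.4 and 50.5 CPM (log2 change -0.60 ± 0.066 SE, edgeR adjusted p = 8.2e-08). Both fell with no overlap. Ccnd1 had 71.1, 70.0 and 61.0 CPM with IL-4, against 43.6, 61.6 and 41.4 CPM (log2 change 0.46 ± 0.17 SE, edgeR adjusted p = 0.0274); its groups overlapped, DESeq2 gave an adjusted p of 0.0638, and the call was lost without IL-4 library 1 (log2 change 0.41) or 2 (0.41) and without unstimulated library 1 (0.37) or 3 (0.34). Cdk4 (0.40 ± 0.051, adjusted p = 7.92e-07), the cyclin A2 gene Ccna2 (0.46 ± 0.13, adjusted p = 0.00479) and E2f1, the E2F factor itself, also rose. E2f1 had 53.4, 51.8 and 50.4 CPM with IL-4, against 40.9, 43.2 and 40.3 CPM (log2 change 0.32 ± 0.046 SE, edgeR adjusted p = 4.62e-06), a small change set against a small spread. Cdk2 was not called (0.073 ± 0.055, adjusted p = 0.295).

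The 2 genes for inhibitors of cyclin-dependent kinases went opposite ways under IL-4. Cdkn1a (ENSMUSG00000023067, chr17:29090976-29100727), the p21 gene, had 218, 230.1 and 200.03 CPM with IL-4, against 167, 165 and 152 CPM (log2 change 0.42 ± 0.077 SE, edgeR adjusted p = 9.28e-05). Cdkn1b, the p27 gene, had 75.0, 79.7 and 77.4 CPM with IL-4, against 102, 110.5 and 111 CPM (log2 change -0.48 ± 0.058 SE, edgeR adjusted p = 4.17e-07). Neither pair overlapped.

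Of the mitotic genes under IL-4, Mki67 (ENSMUSG00000031004, chr7:135689784-135716361) had 126, 159 and 160.2 CPM with IL-4, against 149.9, 121 and 132 CPM (log2 change 0.15 ± 0.12 SE, edgeR adjusted p = 0.337), so the groups overlapped and the gene was not called. At mitotic entry Cdk1 (0.38 ± 0.11, adjusted p = 0.0044), the transcription factor gene Foxm1 (0.36 ± 0.12, adjusted p = 0.0182) and the cyclin B1 gene Ccnb1 (0.33 ± 0.11, adjusted p = 0.0194) rose and Ccnb2 was not called (0.041 ± 0.11, adjusted p = 0.792). Of the later genes, the checkpoint kinase gene Bub1 (0.51 ± 0.12, adjusted p = 0.00103), the chromosomal passenger kinase gene Aurkb (0.39 ± 0.085, adjusted p = 0.000597) and Top2a (0.37 ± 0.10, adjusted p = 0.00467) rose. Cdc20, Bub1b, Plk1, Kif11, Kif20a, Aurka and Birc5 were not called, with log2 changes of -0.14 (Bub1b) to 0.28 (Birc5). Leaving out single libraries ended the call of Ccnb1 in 4 of 6 cases (log2 change 0.28 to 0.39) and of Foxm1 in 3 of 6 (0.31 to 0.39).

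Other genes of the same pathways, which were listed by function, are given as counts. Of 29 further genes of the replication machinery, 22 were higher and 0 lower with IL-4 (median log2 change 0.53). The 3 with the largest changes were Cdc7, the kinase that fires origins (6.95 CPM with IL-4, against 2.88 CPM, log2 change 1.27 ± 0.22 SE, edgeR adjusted p = 4.18e-05), the nuclease gene Dna2 (log2 change 1.02 ± 0.07 SE, edgeR adjusted p = 4.63e-11) and the clamp loader gene Rfc5 (log2 change 0.90 ± 0.088 SE, edgeR adjusted p = 1.46e-08). Of 14 genes of S-phase nucleotide supply and chromatin assembly, 11 were higher and 0 lower (median 0.72), led by the dUTPase gene Dut (28.5 CPM with IL-4, against 6.87 CPM, log2 change 2.06 ± 0.14 SE, edgeR adjusted p = 7.18e-11), then Uhrf1 (1.03), which guides maintenance methylation, and Chaf1a (0.83), a histone chaperone subunit. Of 53 further genes of mitosis and cytokinesis, 29 were higher and 4 lower (median 0.27), led by the kinetochore gene Spc24 (0.97), the kinase gene Pbk (0.93) and the centromere gene Cenpk (0.68).

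Regulators of the cycle went both ways under IL-4, where 25.1% of all genes tested were higher and 22.5% lower. The counts of inhibitors and checkpoint genes below lay near those shares. Of 17 transcription regulators 7 were higher and 2 lower, led by Myc (35.2 CPM with IL-4, against 8.20 CPM, log2 change 2.10 ± 0.20 SE, edgeR adjusted p = 1.3e-08), the B-Myb gene Mybl2 (1.35) and the repressor gene E2f7 (1.18). Of 18 further kinase inhibitors and checkpoint genes 5 were higher and 3 lower. The p57 gene Cdkn1c fell (6.13 CPM with IL-4, against 14.4 CPM, log2 change -1.24 ± 0.16 SE, edgeR adjusted p = 1.34e-06), and the checkpoint kinase genes Chek1 (0.68) and Wee1 (0.68) rose. Of 16 p53 target genes 4 were higher and 6 lower: Sesn1 (-1.30) and Bbc3 (-0.70) fell and Phlda3 (0.89) rose. Of 16 genes of the M-CSF receptor signal 9 were higher and 3 lower. Maf, a transcription factor that restrains macrophage self-renewal in mice, fell (95.2 CPM with IL-4, against 570.3 CPM, log2 change -2.58 ± 0.081 SE, edgeR adjusted p = 8.65e-17), and the growth factor response genes Egr2 (2.50) and Klf4 (2.09) rose. Markers of other cells moved as well. Of 9 neutrophil markers tested 3 were higher and 4 lower, and the summed level of the macrophage list was 14459 to 15997 CPM with IL-4, against 27936 to 30849.5 CPM. Monocyte markers summed to 703 to 889 CPM with IL-4, against 233 to 271 CPM (2 of 6 higher, 2 lower), lymphocyte markers to 317 to 325 CPM, against 150.0 to 178 CPM (1 of 7 higher, 0 lower), and myeloid progenitor markers to 6.12 to 7.84 CPM, against 11.7 to 16.6 CPM (0 of 10 higher, 3 lower). The part of these markers in the changes above was not tested.

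IL-33 gave wild-type macrophages no common change of the replication and mitosis genes, but it shifted the D-type cyclins. With IL-33, 9 of the 40 genes were higher and 6 lower than without, where 18.5% of all genes tested were higher and 16.9% lower, so the share of genes called was near the background. The median log2 change was 0.04 over the 40 genes. The summed replication level was 554 to 659 CPM with IL-33, against 553 to 644 CPM, and the summed mitotic level was 689 to 798 CPM, against 702 to 807 CPM, with overlap in both. The count of higher genes fell to 3 without IL-33 library 1, to 5 without unstimulated library 1 and to 4 without unstimulated library 3.

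Ccnd1 (ENSMUSG00000070348, chr7:144929931-144939925), the D-type cyclin that growth factors induce, had 27.7, 30.4 and 23.8 CPM with IL-33, against 43.6, 61.6 and 41.4 CPM (log2 change -0.84 ± 0.17 SE, edgeR adjusted p = 0.000543). All IL-33 libraries lay below all unstimulated ones. Ccnd2 had 8.33, 6.44 and 6.02 CPM with IL-33, against 3.50, 4.70 and 4.41 CPM (log2 change 0.72 ± 0.18 SE, edgeR adjusted p = 0.00285), and Ccne1 had 7.11, 6.63 and 5.71 CPM with IL-33, against 2.60, 4.36 and 4.31 CPM (log2 change 0.79 ± 0.26 SE, edgeR adjusted p = 0.02). Both were higher with IL-33 in every library. Ccnd3 (0.20 ± 0.065, adjusted p = 0.0175) and E2f1 rose slightly. E2f1 had 45.9, 44.8 and 46.5 CPM with IL-33, against 40.9, 43.2 and 40.3 CPM (log2 change 0.14 ± 0.047 SE, edgeR adjusted p = 0.021), and was not called with upper-quartile scaling (adjusted p = 0.131) nor without a low-count filter (0.2). Ccne1 lost its call in 3 of 6 fits that left out a library (log2 change 0.57 to 0.90), Ccnd3 in 4 (0.16 to 0.24) and E2f1 in 4 (0.11 to 0.16).

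Few replication genes were called under IL-33. Pcna had 235, 209 and 204 CPM with IL-33, against 205, 255 and 218 CPM (log2 change -0.065 ± 0.10 SE, edgeR adjusted p = 0.682), and was not called. Cdt1 (ENSMUSG00000006585, chr8:122568015-122573554) had 31.2, 26.4 and 27.1 CPM with IL-33, against 35.7, 40.3 and 35.6 CPM (log2 change -0.40 ± 0.084 SE, edgeR adjusted p = 0.000691), and fell in every library. Cdc45 (0.52 ± 0.16, adjusted p = 0.0142), Rrm1 (0.30 ± 0.10, adjusted p = 0.0189) and Mcm4 (0.26 ± 0.092, adjusted p = 0.0287) rose. Mcm4 lost its call in all 6 fits that left out a library (log2 change 0.23 to 0.27) and with upper-quartile scaling (adjusted p = 0.0713), Rrm1 in 3 of 6 fits (0.22 to 0.34) and Cdc45 in 2 (0.39 to 0.62).

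Cdkn1a rose under IL-33 as it did under IL-4, in comparisons that share the unstimulated libraries. It had 249, 206 and 205 CPM with IL-33, against 167, 165 and 152 CPM (log2 change 0.45 ± 0.077 SE, edgeR adjusted p = 7.24e-05), with no overlap. Cdkn1b fell (-0.18 ± 0.058, adjusted p = 0.0168) and lost its call in 3 of 6 fits that left out a library (log2 change -0.23 to -0.15). Mki67 had 127, 147 and 144 CPM with IL-33, against 149.9, 121 and 132 CPM (log2 change 0.053 ± 0.12 SE, edgeR adjusted p = 0.782), and was not called. Among the other mitotic genes, the anaphase activator gene Cdc20 had 40.9, 30.1 and 29.4 CPM with IL-33, against 48.9, 44.5 and 39.7 CPM (log2 change -0.41 ± 0.11 SE, edgeR adjusted p = 0.00529), and fell although the groups overlapped. Ccnb2 (-0.38 ± 0.11, adjusted p = 0.00962) and the spindle checkpoint gene Bub1b (-0.30 ± 0.087, adjusted p = 0.00917) fell and Bub1 rose (0.47 ± 0.12, adjusted p = 0.00297). Ccnb2 (log2 change -0.51 to -0.29) and Bub1b (-0.40 to -0.22) each lost the call in 2 of 6 fits that left out a library.

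Of the further genes with IL-33 in wild-type cells, 3 of 29 replication machinery genes were higher and 1 lower, 2 of 14 supply genes were higher and 1 lower, and 0 of 53 mitosis genes were higher and 7 lower. The counts were 3 higher and 2 lower of 17 transcription regulators, 3 and 5 of 18 inhibitors and checkpoint genes, 2 and 5 of 16 p53 targets, and 8 and 2 of 16 M-CSF signal genes. Over all genes tested, 18.5% were higher and 16.9% lower. Of 9 neutrophil markers 6 were higher and 0 lower, with a summed level of 377 to 522 CPM with IL-33, against 122 to 134 CPM, while Ly6g had 2 counts with IL-33, against 0 without. Of 10 myeloid progenitor markers 7 were higher and 2 lower, with summed levels of 12.2 to 15.3 CPM, against 11.7 to 16.6 CPM. Erythroid and megakaryocyte markers summed to 161 to 212 CPM with IL-33, against 14.2 to 22.6 CPM (2 of 3 tested higher, 0 lower), monocyte markers to 416 to 603 CPM, against 233 to 271 CPM (6 of 6 higher), and dendritic cell markers to 29.2 to 32.03 CPM, against 13.9 to 14.4 CPM (4 of 8 higher, 0 lower). The part of these markers in the changes above was not tested.

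**Figure D3:**
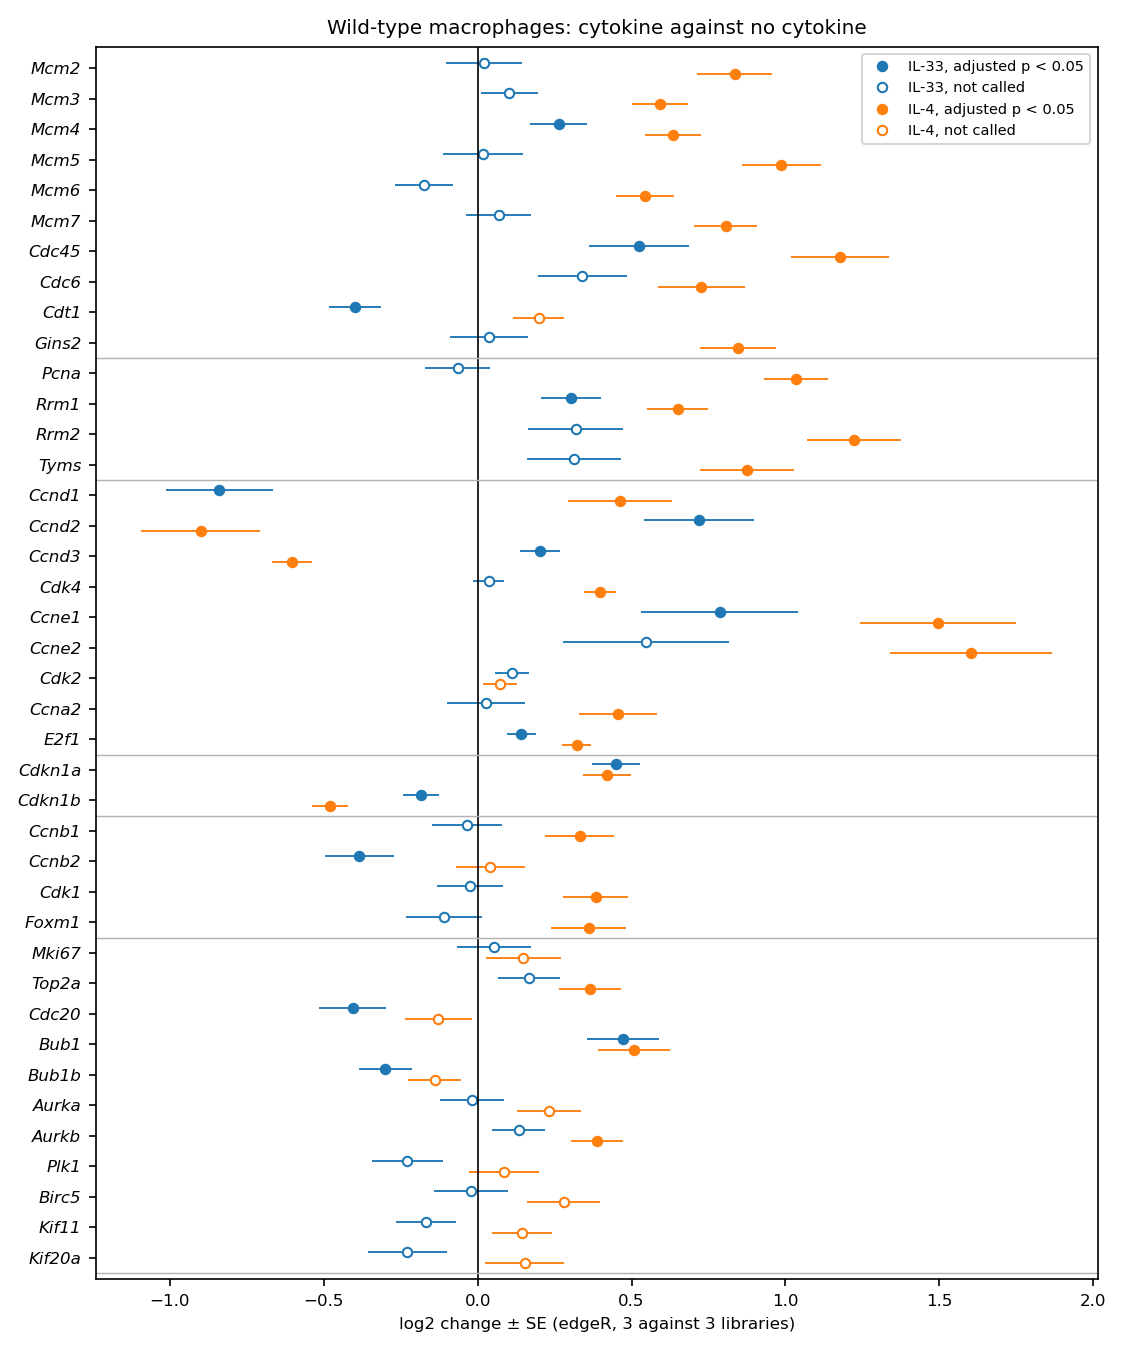
Log2 change of each of the 40 genes (rows, by role) with IL-33 and with IL-4 against no cytokine in wild-type cells; bars are SE and filled points passed an adjusted p of 0.05. IL-4 points of the licensing and supply genes lie between 0.20 (Cdt1) and 1.224 (Rrm2), while IL-33 points of the same genes lie between -0.40 (Cdt1) and 0.52 (Cdc45); both series share the unstimulated libraries.

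Set directly against each other in wild-type cells, IL-33 left most of these genes lower than IL-4 did. Of the members, 3 were higher with IL-33 than with IL-4 and 30 were lower, where 19.2% of all genes tested were higher and 20.7% lower. The median log2 change was -0.38 over the 40 genes and -0.0136 over all genes. All 10 licensing genes, all 4 genes of the clamp and supply and all 4 genes of mitotic entry were lower, as were 6 of 9 at G1 and S phase and 6 of 11 among the mitotic kinases, checkpoint proteins and motors. Pcna (216.1 CPM with IL-33, against 463 CPM with IL-4; log2 change -1.10 ± 0.11 SE, edgeR adjusted p = 1.45e-08), Rrm2 (-0.91 ± 0.15, adjusted p = 3.75e-05) and Tyms (-0.56 ± 0.15, adjusted p = 0.00426) led the supply genes. Mcm5 (-0.97 ± 0.13, adjusted p = 1.56e-06), Mcm2 (-0.81 ± 0.12, adjusted p = 8.82e-06) and Gins2 (-0.81 ± 0.12, adjusted p = 1.32e-05) led the licensing genes. In each of these 6 genes every IL-33 library lay below every IL-4 library.

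The D-type cyclins differed in both directions between the cytokines. Ccnd1 had 27.7, 30.4 and 23.8 CPM with IL-33, against 71.1, 70.0 and 61.0 CPM with IL-4 (log2 change -1.30 ± 0.17 SE, edgeR adjusted p = 1.98e-06). Ccnd2 was higher with IL-33 (1.62 ± 0.19, adjusted p = 2.83e-07) and so were Ccnd3 (0.81 ± 0.066, adjusted p = 1.01e-09) and Cdkn1b (0.30 ± 0.059, adjusted p = 0.000259). No libraries overlapped for these 4 genes. Ccne2 (-1.06 ± 0.25, adjusted p = 0.00191) and E2f1 (-0.18 ± 0.046, adjusted p = 0.00323) were lower with IL-33. Cdkn1a (0.028 ± 0.077, adjusted p = 0.809) and Mki67 (-0.10 ± 0.12, adjusted p = 0.58) were not called. At mitotic entry Foxm1 (-0.47 ± 0.12, adjusted p = 0.00369), Ccnb2 (-0.43 ± 0.11, adjusted p = 0.00389) and Cdk1 (-0.41 ± 0.11, adjusted p = 0.00341) were lower, and among the later genes the motor genes Kif20a (-0.38 ± 0.13, adjusted p = 0.0207) and Kif11 (-0.31 ± 0.10, adjusted p = 0.013) and the polo kinase gene Plk1 (-0.31 ± 0.12, adjusted p = 0.0337) were lower. Libraries of the 2 groups overlapped for Kif20a and Plk1, and leaving out single libraries ended the calls of Kif20a and Kif11 in 3 of 6 cases and of Plk1 in 4 of 6. Of the further genes, 0 of 29 of the replication machinery were higher and 20 lower, 1 of 14 supply genes was higher and 11 lower, and 1 of 53 mitosis genes was higher and 35 lower.

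**Figure D4:**
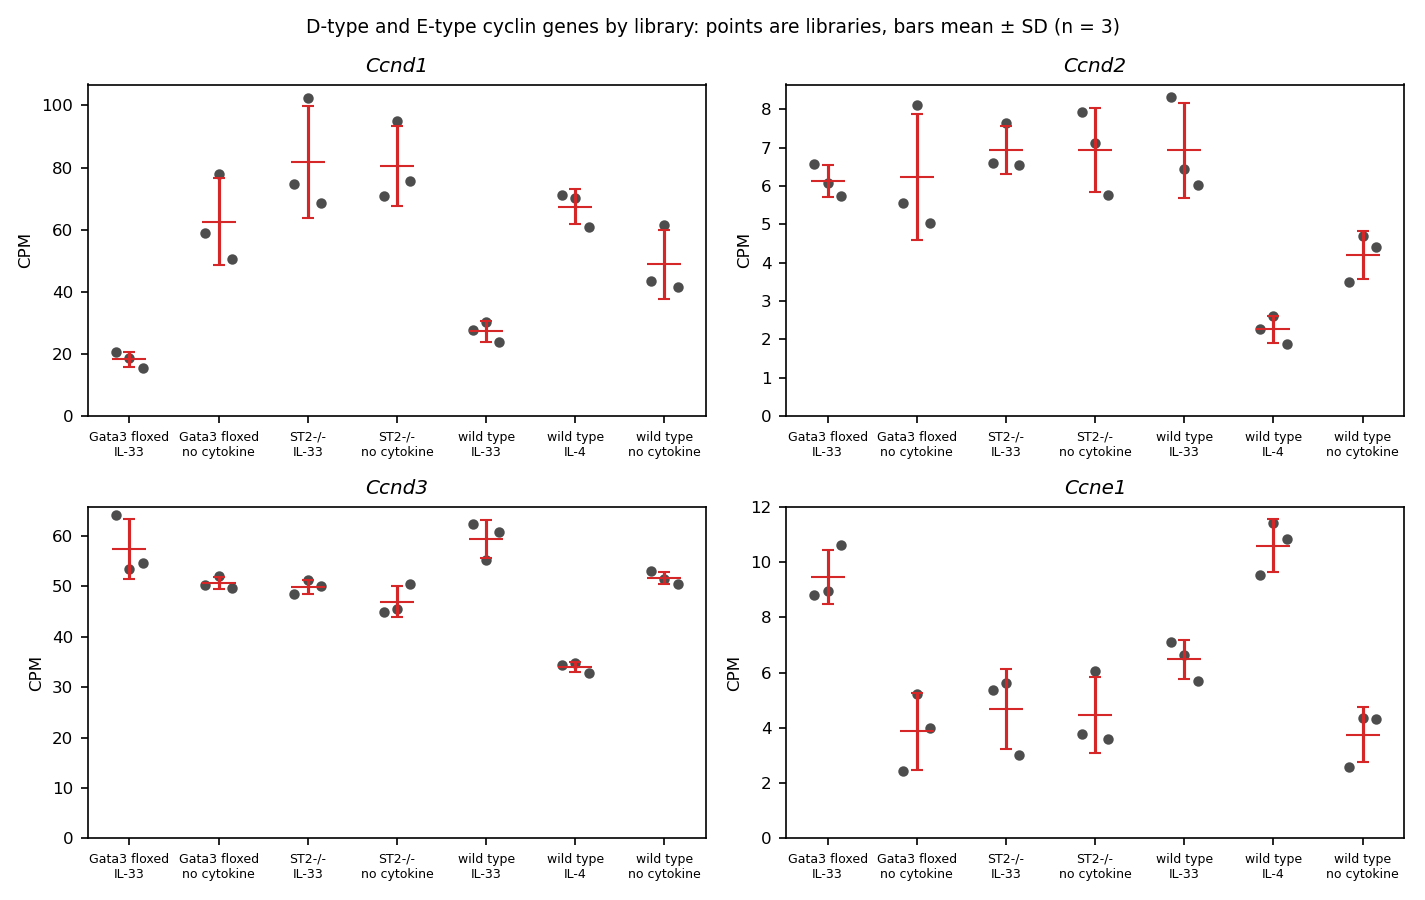
CPM of Ccnd1, Ccnd2, Ccnd3 and Ccne1 in each library (points) with the mean and SD of each group (n = 3). Ccnd1 is lowest in the IL-33 groups of floxed-labelled and wild-type cells, at means of 18.2 and 27.3 CPM, and Ccnd2 and Ccnd3 are lowest in wild-type cells with IL-4, at means of 2.26 and 34.0 CPM.

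On the per-length scale the makeup of the D-type cyclin pool changed with the cytokine. The lengths were merged exons of all annotated transcripts: 4709 bases for Ccnd1, 9409 for Ccnd2 and 8775 for Ccnd3. The size of each share depends on these lengths, and the transcripts expressed were not examined. The share of Ccnd1 in the summed RPKM of Ccnd1, Ccnd2 and Ccnd3 was 43.5% ± 4.14 in wild-type cells with IL-33 and 77.6% ± 0.883 with IL-4, against 61.6% ± 4.91 without cytokine (mean ± SD, n = 3). The share of Ccnd3 was 51.0% ± 4.04 with IL-33 and 21.1% ± 0.944 with IL-4, against 35.7% ± 4.81 without. The Ccnd1 share was 34.9% ± 2.28 in floxed-labelled cells with IL-33, against 67.0% ± 3.75 without, and 72.6% ± 3.60 in ST2KO-labelled cells with IL-33, against 73.5% ± 3.25 without. In all 3 libraries of the wild-type and floxed-labelled IL-33 groups Ccnd1 made up less than in any library of their unstimulated groups, whereas the ST2KO-labelled groups overlapped. Ccnd2 made up at most 5.91% in any group. Of Ccnd1's exon length 23.4% overlaps LTO1 on the other strand, so part of its counts may belong there.

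In ST2KO-labelled cells none of the 40 genes passed the test for a change with IL-33. The counts with edgeR were 0 higher and 0 lower of 40, with 0 of 40 at an unadjusted p under 0.05; DESeq2 and limma-voom also called 0. Of all 14473 genes, 0% were called higher and 0% lower, and 507 had an unadjusted p under 0.05. A fit without a low-count filter called 30 genes higher and 40 lower among all genes it kept, and the cause was not tested. Log2 changes of the 40 genes ran from -0.19 (Ccnb2) to 0.14 (Mki67), with a median of -0.03. Ccnd1 had 74.7, 102 and 68.6 CPM with IL-33, against 70.8, 95.1 and 75.6 CPM (log2 change 0.025 ± 0.16 SE, edgeR adjusted p = 1). Cdkn1a had 168, 186 and 155 CPM with IL-33, against 175, 188 and 170.0 CPM (log2 change -0.065 ± 0.077 SE, edgeR adjusted p = 1). Both pairs overlapped, and in each of the 2 groups library 2 held the highest Ccnd1 level. Pcna (0.047 ± 0.10, adjusted p = 1), Mki67 (0.14 ± 0.12, adjusted p = 1) and E2f1 (0.04 ± 0.046, adjusted p = 1) were not called either.

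The responses of ST2KO-labelled and wild-type cells to IL-33 were also compared directly, as the response of ST2KO-labelled cells minus that of wild-type cells. Of the 40 genes, 2 differences were positive and 3 negative by the test, against 10.6 and 12.1% of all genes. Ccnd1 (0.86 ± 0.24, adjusted p = 0.0108) and Cdt1 (0.41 ± 0.12, adjusted p = 0.0149), which IL-33 lowered in wild-type cells, gave the positive differences. Cdkn1a (-0.51 ± 0.11, adjusted p = 0.00124), Bub1 (-0.52 ± 0.17, adjusted p = 0.0263) and Ccnd2 (-0.72 ± 0.25, adjusted p = 0.0389), which IL-33 raised in wild-type cells, gave the negative ones. Pcna (0.11 ± 0.15, adjusted p = 0.655), Mki67 (0.086 ± 0.17, adjusted p = 0.779) and E2f1 (-0.10 ± 0.066, adjusted p = 0.301) were not called. Leaving out single libraries kept the calls of Ccnd1, Cdt1 and Cdkn1a in 12 of 12 fits, but ended that of Ccnd2 in 7 (log2 difference -0.83 to -0.56) and of Bub1 in 6 (-0.71 to -0.39). The count of negative differences was 7 without ST2KO-labelled IL-33 library 2 and 1 without ST2KO-labelled IL-33 library 1 or 3, ST2KO-labelled unstimulated library 2, wild-type IL-33 library 1 or wild-type unstimulated library 3; the count of positive ones was 4 without wild-type IL-33 library 1.

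Under IL-33 itself, ST2KO-labelled cells held more of several of these genes than wild-type cells. Of the 40 genes, 14 were higher and 2 lower in ST2KO-labelled cells with IL-33 than in wild-type cells with IL-33, where 17.9% of all genes tested were higher and 19.1% lower. The median log2 change was 0.15. Ccnd1 had 74.7, 102 and 68.6 CPM in ST2KO-labelled cells, against 27.7, 30.4 and 23.8 CPM in wild-type cells (log2 change 1.59 ± 0.17 SE, edgeR adjusted p = 1.9e-07), with no overlap. Cdt1 (0.61 ± 0.084, adjusted p = 4.22e-06), Mcm5 (0.50 ± 0.13, adjusted p = 0.0036) and Mcm6 (0.42 ± 0.094, adjusted p = 0.00114) were higher with no overlap, and Pcna (0.29 ± 0.10, adjusted p = 0.0343) was higher with overlap. Cdkn1a had 168, 186 and 155 CPM in ST2KO-labelled cells, against 249, 206 and 205 CPM in wild-type cells (log2 change -0.38 ± 0.077 SE, edgeR adjusted p = 0.000507), and Ccnd3 was lower too (-0.25 ± 0.065, adjusted p = 0.00378). E2f1 was not called (-0.06 ± 0.046, adjusted p = 0.343).

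Among mitotic genes under IL-33, Mki67 (0.39 ± 0.12, adjusted p = 0.0136), Kif20a (0.38 ± 0.13, adjusted p = 0.0238) and Cdc20 (0.32 ± 0.11, adjusted p = 0.024) were higher in ST2KO-labelled cells, as were Foxm1 (0.32 ± 0.12, adjusted p = 0.042) and Ccnb2 (0.29 ± 0.11, adjusted p = 0.0429), and the groups overlapped for all 5. The count of higher genes was 4 without ST2KO-labelled IL-33 library 2, 5 without wild-type IL-33 library 2 and 6 without wild-type IL-33 library 3. Mki67, Foxm1, Kif20a and Pcna each lost the call in 3 of 6 such fits, and Cdc20 and Ccnb2 in 4. Of the further genes, 5 of 29 of the replication machinery were higher and 1 lower, 1 of 14 supply genes was higher and 1 lower, and 19 of 53 mitosis genes were higher and 0 lower. Of 9 neutrophil markers 0 were higher and 7 lower, with summed levels of 141 to 151 CPM in ST2KO-labelled cells, against 377 to 522 CPM in wild-type cells. Monocyte markers summed to 269 to 330.5 CPM, against 416 to 603 CPM (0 of 6 higher, 6 lower), and erythroid and megakaryocyte markers to 21.6 to 33.1 CPM, against 161 to 212 CPM (0 of 3 higher, 2 lower). The part of these markers was not tested.

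Without cytokine, ST2KO-labelled cells differed from wild-type cells in 4 of the 40 genes, all higher, and 0 were lower, where 0.871% of all genes tested were higher and 0.484% lower. The median log2 change was 0.25 over the 40 genes and 0.00426 over all genes. Mcm5 had 39.3, 46.0 and 41.2 CPM in ST2KO-labelled cells, against 29.1, 31.5 and 25.8 CPM in wild-type cells (log2 change 0.55 ± 0.13 SE, edgeR adjusted p = 0.0328). Rrm2 had 28.9, 38.5 and 30.4 CPM in ST2KO-labelled cells, against 18.4, 24.0 and 19.99 CPM (log2 change 0.65 ± 0.15 SE, edgeR adjusted p = 0.0346). Neither gene overlapped. Ccnd1 (0.72 ± 0.17, adjusted p = 0.0333) and Ccnd2 (0.72 ± 0.18, adjusted p = 0.0435) were the other 2, and Pcna (0.18 ± 0.10, adjusted p = 0.465), Mki67 (0.31 ± 0.12, adjusted p = 0.226), Cdkn1a (0.14 ± 0.077, adjusted p = 0.425) and E2f1 (0.042 ± 0.047, adjusted p = 0.741) were not called. The count rested on single libraries: it was 0 without ST2KO-labelled library 2, 0 without wild-type library 1 or 3 and 1 without ST2KO-labelled library 3, and each of the 4 genes lost its call in 4 of 6 such fits. At an unadjusted p under 0.05, 23 of the 40 genes were higher and 1 was lower, and DESeq2 called 7 higher. Of all 14473 genes, 2137 had an unadjusted p under 0.05 in either direction. DESeq2 called 230 of all genes higher, against 126 in the main fit.

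Unstimulated floxed-labelled cells held more of both the replication and the mitotic genes than unstimulated wild-type cells, and the comparison also separates libraries with Xist from libraries without it. Here 22 of the 40 genes were higher and 0 lower, where 5.6% of all genes tested were higher and 4.25% lower. The median log2 change was 0.37 over the 40 genes and 0.0043 over all genes. The higher genes were 7 of 10 in licensing, 3 of 4 in the clamp and supply, 3 of 9 at G1 and S phase, 2 of 4 at mitotic entry and 7 of 11 among the mitotic kinases, checkpoint proteins and motors, and neither kinase inhibitor was called. The summed mitotic level was 1033 to 1093 CPM in floxed-labelled cells, against 702 to 807 CPM in wild-type cells, and the summed replication level was 713 to 842 CPM, against 553 to 644 CPM. Neither overlapped. The count of higher genes was 11 without floxed-labelled library 2 and 10 without wild-type library 3.

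**Figure D5:**
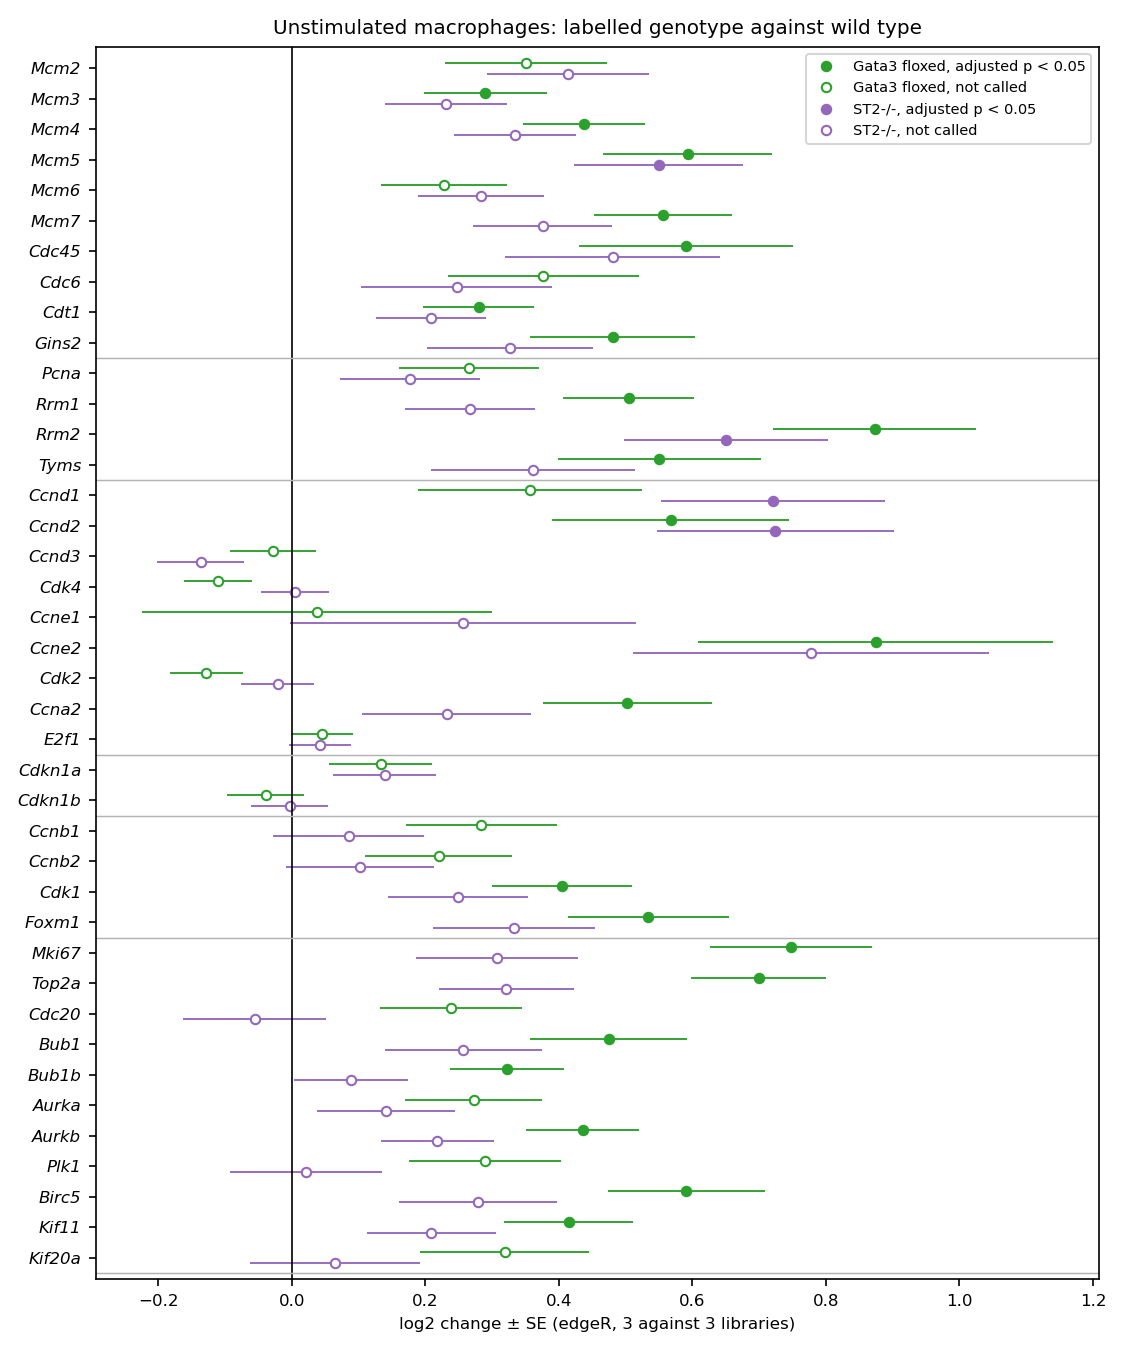
Log2 change of each of the 40 genes (rows, by role) in unstimulated floxed-labelled and ST2KO-labelled cells against unstimulated wild-type cells; bars are SE and filled points passed an adjusted p of 0.05. Of the 40 genes, 22 are filled for floxed-labelled cells and 4 for ST2KO-labelled cells, all to the right of 0; both series share the wild-type libraries.

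Mki67 had 208, 257 and 211 CPM in floxed-labelled cells, against 149.9, 121 and 132 CPM in wild-type cells (log2 change 0.75 ± 0.12 SE, edgeR adjusted p = 0.000395). Top2a had 185, 205 and 185 CPM in floxed-labelled cells, against 117, 123 and 114 CPM (log2 change 0.70 ± 0.10 SE, edgeR adjusted p = 0.000121). Birc5, which encodes survivin of the chromosomal passenger complex, had 50.7, 51.0 and 46.8 CPM in floxed-labelled cells, against 32.9, 35.3 and 30.5 CPM (log2 change 0.59 ± 0.12 SE, edgeR adjusted p = 0.00257). All floxed-labelled libraries lay above all wild-type ones for the 3 genes, whose fold changes were 1.68, 1.62 and 1.51. At mitotic entry Foxm1 (0.53 ± 0.12, adjusted p = 0.00668) and Cdk1 (0.40 ± 0.10, adjusted p = 0.0167) were higher, and Ccnb1 (0.28 ± 0.11, adjusted p = 0.118) and Ccnb2 (0.22 ± 0.11, adjusted p = 0.23) were not called. Bub1, Aurkb, Kif11 and Bub1b were higher by log2 changes of 0.32 (Bub1b) to 0.47 (Bub1), while Aurka, Plk1, Cdc20 and Kif20a, at 0.24 (Cdc20) to 0.32 (Kif20a), were not called. Leaving out 1 library ended the call of Cdk1 in 4 of 6 fits (log2 change 0.34 to 0.44), of Bub1b in 3 (0.22 to 0.40), of Bub1 in 2 (0.40 to 0.52) and of Kif11 in 1 (0.35 to 0.45).

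Among the replication genes, Rrm2 had 35.5, 43.5 and 35.3 CPM in floxed-labelled cells, against 18.4, 24.0 and 19.99 CPM in wild-type cells (log2 change 0.87 ± 0.15 SE, edgeR adjusted p = 0.000759). Mcm7 had 40.5, 50.7 and 42.4 CPM in floxed-labelled cells, against 28.9, 33.4 and 28.6 CPM (log2 change 0.56 ± 0.10 SE, edgeR adjusted p = 0.00143). Neither gene overlapped, and Mcm7 shares exon length with Ap4m1 and Cops6. Mcm5 (0.59 ± 0.13, adjusted p = 0.00447), Cdc45 (0.59 ± 0.16, adjusted p = 0.0219), Tyms (0.55 ± 0.15, adjusted p = 0.024) and Rrm1 (0.50 ± 0.10, adjusted p = 0.00198) were also higher. Pcna was not called: it had 256, 308 and 251 CPM in floxed-labelled cells, against 205, 255 and 218 CPM (log2 change 0.27 ± 0.10 SE, edgeR adjusted p = 0.115). Pcna was called without a low-count filter (adjusted p = 0.000129), in a fit that also called genes for IL-33 in ST2KO-labelled cells, where the main fit called 0. Several calls rested on single libraries. Mcm3 (0.29 ± 0.092, adjusted p = 0.0485) lost its call in all 6 fits that left out a library (log2 change 0.22 to 0.33), Cdc45 in 5 of 6 (0.51 to 0.67), Cdt1 in 4 of 6 (0.18 to 0.34), Tyms in 3 of 6 (0.47 to 0.65) and Gins2 in 3 of 6 (0.40 to 0.51).

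Of the 9 cyclin, kinase and E2f genes of G1 and S phase, 3 were higher and 0 lower between these genotypes. Ccne2 (0.87 ± 0.27, adjusted p = 0.0403), Ccna2 (0.50 ± 0.13, adjusted p = 0.0139) and Ccnd2 (0.57 ± 0.18, adjusted p = 0.0468) were higher, and Ccnd1 (0.36 ± 0.17, adjusted p = 0.197), E2f1 (0.045 ± 0.047, adjusted p = 0.617) and Cdkn1a (0.13 ± 0.077, adjusted p = 0.313) were not called. The fit without a low-count filter, with the limit given above for Pcna, called Ccnd1 (adjusted p = 1.46e-05). limma-voom did not call Ccne2 (adjusted p = 0.0755) or Ccnd2 (0.0714), and Ccnd2 lost its call in 5 of 6 fits that left out a library (log2 change 0.34 to 0.69), Ccne2 in 3 of 6 (0.56 to 1.11) and Ccna2 in 2 of 6 (0.41 to 0.56). The spread of Ccne2 was wide, with 4.46, 8.04 and 4.76 CPM in floxed-labelled cells, against 2.27, 4.10 and 3.01 CPM in wild-type cells.

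Outside the 40, of 53 further mitosis genes 42 were higher and 0 lower in unstimulated floxed-labelled cells (median log2 change 0.50), led by Pbk (17.2 CPM in floxed-labelled cells, against 7.61 CPM in wild-type cells, log2 change 1.18 ± 0.19 SE, edgeR adjusted p = 0.000334) and the kinetochore genes Spc24 (0.80) and Spc25 (0.75). Of 29 genes of the replication machinery 9 were higher and 0 lower, led by the polymerase gene Pole (0.88), the checkpoint mediator gene Clspn (0.70) and the primase gene Prim1 (0.54). Of 14 supply genes 4 were higher and 0 lower: the thymidine kinase gene Tk1 (0.68), Uhrf1 (0.66) and the histone chaperone gene Asf1b (0.52) led them. For all these lists, the shares over all genes tested were 5.6% higher and 4.25% lower. Of 17 transcription regulators 4 were higher and 0 lower, led by E2f7 (1.02), Mxd3 (0.72) and E2f8 (0.64). Of 18 inhibitors and checkpoint genes 4 were higher and 1 lower, led by Cdkn1c (log2 change 0.90 ± 0.15 SE, edgeR adjusted p = 0.000593), Fbxo5 (0.56) and Pkmyt1 (0.49). Of 16 p53 targets 1 was higher, Ccng1 (0.31), and 2 were lower, Bbc3 (-0.40) and Bax (-0.25). Of 16 M-CSF signal genes 2 were higher and 2 lower, led by Egr2 (0.48) and Klf2 (-0.28). Of 9 neutrophil markers 6 were higher and 0 lower, with summed levels of 169 to 189.7 CPM in floxed-labelled cells, against 122 to 134 CPM, and Ly6g had 0 counts in both. Of 10 myeloid progenitor markers 1 was higher and 0 lower, with summed levels of 17.0 to 20.4 CPM, against 11.7 to 16.6 CPM. Monocyte markers summed to 315 to 327 CPM in floxed-labelled cells, against 233 to 271 CPM (2 of 6 higher, 0 lower), lymphocyte markers to 282 to 289 CPM, against 150.0 to 178 CPM (1 of 7 higher, 0 lower), and stromal markers to 2.43 to 5.21 CPM, against 0.765 to 1.85 CPM (2 of 5 higher, 0 lower). The part of these markers was not tested.

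With IL-33, floxed-labelled cells lowered Ccnd1 and many mitotic genes relative to their own unstimulated libraries. Of the 40 genes, 8 were higher and 11 lower, where 17.1% of all genes tested were higher and 16.3% lower; with upper-quartile scaling the 40 genes gave 5 higher, and all genes 2001 higher and 2985 lower in place of 2471 and 2364. The lower genes were Ccnd1, Cdkn1b, 2 of 4 at mitotic entry and 7 of 11 among the mitotic kinases, checkpoint proteins and motors, whose median log2 change was -0.37. Ccnd1 had 20.5, 18.7 and 15.5 CPM with IL-33, against 58.9, 78.0 and 50.7 CPM (log2 change -1.78 ± 0.18 SE, edgeR adjusted p = 5.96e-08), and Ccnb2 had 51.6, 42.8 and 48.2 CPM with IL-33, against 85.2, 75.3 and 86.9 CPM (log2 change -0.79 ± 0.11 SE, edgeR adjusted p = 7.18e-06). Neither gene overlapped. Cdc20 (-0.68 ± 0.11, adjusted p = 3.49e-05), Kif20a (-0.61 ± 0.13, adjusted p = 0.000692), Plk1 (-0.48 ± 0.11, adjusted p = 0.00208), Ccnb1 (-0.38 ± 0.11, adjusted p = 0.012) and Mki67 (-0.34 ± 0.12, adjusted p = 0.0355) fell as well. The call of Mki67 was lost with DESeq2 (adjusted p = 0.0601) and in 3 of 6 fits that left out a library (log2 change -0.40 to -0.23), and that of Ccnb1 in 2 of 6 (-0.47 to -0.28).

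Genes of G1 and of origin loading went both ways in the same cells. Of 10 licensing genes 2 were higher and 0 lower, with summed levels of 300.0 to 354 CPM with IL-33, against 326 to 382 CPM, and of 9 genes of G1 and S phase 5 were higher and 1, Ccnd1, was lower. Ccne1 had 8.83, 8.96 and 10.6 CPM with IL-33, against 2.43, 5.22 and 3.99 CPM (log2 change 1.29 ± 0.25 SE, edgeR adjusted p = 0.000324), with no overlap. Cdc6 (0.51 ± 0.14, adjusted p = 0.00633), Cdc45 (0.52 ± 0.15, adjusted p = 0.0115), E2f1 (0.21 ± 0.046, adjusted p = 0.00106) and Cdkn1a (0.33 ± 0.077, adjusted p = 0.00201) rose and Cdkn1b fell (-0.30 ± 0.058, adjusted p = 0.00035). Pcna was not called (-0.11 ± 0.10, adjusted p = 0.466). The small rises of Ccnd3, Cdk4 and Cdk2 (log2 changes 0.17 to 0.18) were not called with upper-quartile scaling, and Ccnd3 lost its call in 3 of 6 fits that left out a library (0.092 to 0.24). Of the further genes, 0 of 53 mitosis genes were higher and 30 lower, 2 of 29 of the replication machinery were higher and 1 lower, and 3 of 14 supply genes were higher and 1 lower. Of 9 neutrophil markers 5 were higher and 0 lower, with summed levels of 445 to 525 CPM with IL-33, against 169 to 189.7 CPM. Monocyte markers summed to 518 to 559.7 CPM, against 315 to 327 CPM (4 of 6 higher, 0 lower), and erythroid and megakaryocyte markers to 132 to 163 CPM, against 19.5 to 28.0 CPM (1 of 3 higher, 0 lower). The part of these markers was not tested.

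The difference between the IL-33 responses, floxed-labelled minus wild-type, was called for 0 of the 40 genes in either direction with edgeR, where 0.539% of all genes were called positive and 0.677% negative. At an unadjusted p under 0.05, 0 were positive and 10 negative, where 1973 of all 14473 genes passed in either direction. DESeq2 called 1 of the 40 negative and limma-voom 0. Over all genes DESeq2 called 167 negative and limma-voom 94, against 98 in the main fit. The largest difference among the 40 genes was that of Ccnd1 (-0.94 ± 0.25, adjusted p = 0.0653), which DESeq2 called (adjusted p = 0.0479). The test called 1 gene negative without floxed-labelled unstimulated library 3 and 1 without wild-type unstimulated library 2. Mki67 (-0.39 ± 0.17, adjusted p = 0.315), Pcna (-0.044 ± 0.15, adjusted p = 0.941), Cdkn1a (-0.12 ± 0.11, adjusted p = 0.697) and E2f1 (0.07 ± 0.066, adjusted p = 0.717) were not called. The larger count of lower mitotic genes in floxed-labelled cells than in wild-type cells is therefore not shown to be a difference between the genotypes' responses.

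With IL-33 in both genotypes, floxed-labelled cells held more of several replication genes. A total of 10 of the 40 genes were higher and 1 lower in floxed-labelled than in wild-type cells, where 5.5% of all genes tested were higher and 5.85% lower, and the median log2 change was 0.22. Of the 10 higher genes 7 were licensing genes, led by Cdc45 (0.59 ± 0.16, adjusted p = 0.0159), Cdc6 (0.55 ± 0.14, adjusted p = 0.0125) and Cdt1 (0.47 ± 0.084, adjusted p = 0.00064). Rrm2 had 47.0, 41.1 and 50.7 CPM in floxed-labelled cells, against 30.0, 23.5 and 24.3 CPM in wild-type cells (log2 change 0.84 ± 0.15 SE, edgeR adjusted p = 0.000694), with no overlap. Foxm1 (0.48 ± 0.12, adjusted p = 0.0117) and Top2a (0.34 ± 0.10, adjusted p = 0.0317) were higher. Ccnd1 was lower, with 20.5, 18.7 and 15.5 CPM in floxed-labelled cells, against 27.7, 30.4 and 23.8 CPM in wild-type cells (log2 change -0.58 ± 0.18 SE, edgeR adjusted p = 0.0412), and limma-voom did not call it (adjusted p = 0.113). Mki67 (0.36 ± 0.12, adjusted p = 0.0602), Pcna (0.22 ± 0.10, adjusted p = 0.195), Cdkn1a (0.011 ± 0.077, adjusted p = 0.955) and E2f1 (0.11 ± 0.047, adjusted p = 0.124) were not called. A fit of the compared groups alone called Mki67 (adjusted p = 0.00993) and Pcna (0.0291) but not Mcm2 (0.073), Mcm3 (0.0571) or Mcm5 (0.0545). A fit without a low-count filter also called Mki67 (2.34e-07) and Pcna (0.00345). That fit called genes for IL-33 in ST2KO-labelled cells as well, where the main fit called 0.

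These calls under IL-33 rested in part on single libraries. The count of higher genes was 4 without floxed-labelled IL-33 library 1 or wild-type IL-33 library 2, and 5 without floxed-labelled IL-33 library 3 or wild-type IL-33 library 3. The call of Ccnd1 was lost without floxed-labelled IL-33 library 2 (log2 change -0.59) or 3 (-0.47) and without wild-type IL-33 library 1 (-0.57) or 2 (-0.49). Top2a lost its call in 4 of 6 such fits (0.27 to 0.42), and Cdc45, Cdc6 and Foxm1 in 2 of 6 each. Of the further genes, 6 of 29 of the replication machinery were higher and 0 lower, 8 of 14 supply genes were higher and 1 lower, and 10 of 53 mitosis genes were higher and 0 lower. Of 10 myeloid progenitor markers 4 were higher and 0 lower, with summed levels of 20.4 to 28.3 CPM in floxed-labelled cells, against 12.2 to 15.3 CPM in wild-type cells. Lymphocyte markers summed to 235 to 267 CPM, against 127 to 140.5 CPM (2 of 7 higher, 0 lower). The part of these markers was not tested.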

How the data were processed

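RNA was extracted with an RNeasy kit, and libraries were made with NEBNext Ultra and sequenced as paired reads on a NovaSeq, per the labels' protocols. The authors deposited raw counts per gene, whole numbers with no normalization; GRCm38 and the tools HISAT2 2.0.5, HTSeq 0.6.1 and DESeq2 1.22.2 stand, with no roles given, in the submitters' processing notes, and the strand setting is not given in the sources used here. Counts were filtered with edgeR's filterByExpr, which kept 14473 of 47069 genes and at least 99.97% of each library's counts, and were scaled by TMM. One quasi-likelihood model (edgeR 4.0.16, R 4.3.3) over 7 groups of 3 libraries gave each contrast, with Benjamini-Hochberg adjustment over all genes tested; the median residual degrees of freedom were 14 and the common dispersion was 0.0074. RPKM used exon lengths of GENCODE M21, merged over all transcripts of a gene. This annotation held 46574 of the 47069 identifiers. Groups came from the sample titles and characteristics, and all columns mapped to a sample. The members and gene lists were chosen with earlier results of these data known. Full statistics are given for the called members with the largest changes in a role and for Mki67, Pcna, Ccnd1, Cdkn1a and E2f1. Alternatives were DESeq2 1.42.0, limma-voom (limma 3.58.1), RLE and upper-quartile factors, no filter and a stricter one (1 CPM in 3 libraries), fits on the compared groups alone, a replicate block and each library left out. On simulated counts for IL-4 against no cytokine (14187 genes) the fit called 42 of 50 genes raised 1.5-fold, 45 of 50 raised 2-fold, 49 of 50 raised 4-fold and 45 of 50 lowered to 0.5 of their level, with 7 calls among the genes left unchanged. The genes changed in the simulation all had expected counts over 50, and every other gene was held equal across the groups. In the data, 25.1% of genes were called higher and 22.5% lower with IL-4. The simulation therefore cannot show how the fit behaves for low counts or for scaling under such broad change. No libraries of a group agreed within sampling noise. The value of 1 gene of the M-CSF signal list is not reported here.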

Additional observations from a re-analysis of the deposited data

Results flagged for a closer look

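The 5 genes listed here responded differently to IL-33 in ST2KO-labelled and wild-type cells by the test of the difference itself (edgeR, ST2KO-labelled response minus wild-type response, n = 3 libraries in each of 4 groups). Ccnd1 differed by 0.86 ± 0.24 on the log2 scale (SE, adjusted p = 0.0108) and Cdt1 by 0.41 ± 0.12 (adjusted p = 0.0149). Cdkn1a differed by -0.51 ± 0.11 (adjusted p = 0.00124), Bub1 by -0.52 ± 0.17 (adjusted p = 0.0263) and Ccnd2 by -0.72 ± 0.25 (adjusted p = 0.0389). The calls of Ccnd2 and Bub1 were lost when some single libraries were left out.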

How the results depend on the processing

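Of 1488 values of single genes under alternatives other than leaving out a library, 1435 kept their direction and their side of the threshold, 39 lost the call, 14 gained one and 0 reversed. Leaving out 1 library kept 953 of 1194, ended the call in 221, gained it in 2 and reversed 18, all of genes that were not called. The log2 change then ranged from -0.14 to 0.022 for Pcna and from -0.026 to 0.13 for Mki67 with IL-33 in wild-type cells, from -0.058 to 0.088 for Cdkn1a with IL-33 against IL-4, from -0.080 to 0.17 for Pcna and -0.17 to 0.16 for Ccnd1 with IL-33 in ST2KO-labelled cells, and from -0.050 to 0.11 for Cdkn1a between floxed-labelled and wild-type cells with IL-33. The difference of responses ranged from -0.018 to 0.25 for Pcna and -0.042 to 0.25 for Mki67 (ST2KO-labelled minus wild-type) and from -0.12 to 0.054 for Pcna (floxed-labelled minus wild-type).

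Counts of the 40 genes higher and lower under these leave-outs were 3 to 7 and 4 to 9 for IL-33 in wild-type cells, 23 to 26 and 3 to 4 for IL-4, 3 to 3 and 20 to 31 for IL-33 against IL-4, 0 and 0 for IL-33 in ST2KO-labelled cells, 6 to 9 and 9 to 12 for IL-33 in floxed-labelled cells, 0 to 4 and 0 for ST2KO-labelled against wild-type cells without cytokine and 4 to 15 and 2 to 3 with IL-33, 10 to 20 and 0 for floxed-labelled against wild-type cells without cytokine and 4 to 13 and 0 to 1 with IL-33, 2 to 4 and 1 to 7 for the difference of responses with ST2KO-labelled cells and 0 and 0 to 1 with floxed-labelled cells. Without a low-count filter the counts were 4 higher and 7 lower for the ST2KO-labelled difference of responses and 9 lower for the floxed-labelled one. For ST2KO-labelled against wild-type cells they were 19 higher without cytokine and 4 lower with IL-33. For floxed-labelled against wild-type cells with IL-33, 21 were higher. Over all genes that this fit kept, the matching counts were 1487 higher and 1784 lower, 326 lower, 535 higher, 2683 lower and 960 higher. In the main fit they were 1539 and 1745, 98, 126, 2759 and 796 over all genes. The cause was not tested. DESeq2 gave 7 higher for ST2KO-labelled against wild-type cells without cytokine and 1 lower for the floxed-labelled difference of responses. Over all genes DESeq2 gave 230 higher and 167 lower in these 2 cases, against 126 and 98 in the main fit. limma-voom gave 0 lower for floxed-labelled against wild-type cells with IL-33, and upper-quartile factors gave 5 higher for IL-33 in floxed-labelled cells. Over all genes these gave 836 lower and 2001 higher, against 846 and 2471 in the main fit.

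Across all genes tested, deviations from the group mean had a median r of 0.0257 between libraries of different groups with the same replicate number (63 pairs). Pairs with other numbers had a median of -0.013 (126 pairs), and the main fit does not take the numbers as pairs. This r cannot exclude an effect shared by fewer genes. The summed replication level was highest in library 2 of all 3 unstimulated groups and of ST2KO-labelled cells with IL-33. It was highest in library 1 of the wild-type IL-4 group and of the wild-type and floxed-labelled IL-33 groups. With the replicate block, 28 genes were higher and 3 lower with IL-4, 9 and 6 with IL-33, 3 and 30 for IL-33 against IL-4, 8 and 12 for IL-33 in floxed-labelled cells, 0 and 0 for IL-33 in ST2KO-labelled cells, 24 and 0 for floxed-labelled against wild-type cells without cytokine and 14 and 1 with IL-33, 6 and 0 for ST2KO-labelled against wild-type cells without cytokine and 14 and 3 with IL-33. The block gave 3 and 3 for the ST2KO-labelled difference of responses and 0 and 1 for the floxed-labelled one, where Ccnd1 was called (adjusted p = 0.00054). It also called Ccnd1 for floxed-labelled against wild-type cells without cytokine (0.0139) and Mki67 with IL-33 (0.0417). Calls over all genes rose with the block too. For ST2KO-labelled against wild-type cells without cytokine they were 300 higher and 290 lower, against 126 and 70 in the main fit. For floxed-labelled against wild-type cells they were 973 and 827 without cytokine, against 810 and 615. For the floxed-labelled difference of responses they were 182 and 173, against 78 and 98.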
